A study of Mus musculus with 20 samples.

Results

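The genes described here are those of haemoglobin and its supply of haem: Hba-a1 and Hba-a2, which encode the adult alpha globin chain, Hbb-bs and Hbb-bt, which encode the adult beta globin chain, and Alas2, which encodes the red cell form of aminolevulinate synthase, the first enzyme of haem synthesis. They were chosen by name, 5 of the 33119 gene rows in the table of read counts, and all 5 were among the 21724 genes that passed the filter on low counts. The RNA came from the hippocampus of 20 mice aged 16 months, 5 in each of 4 groups. The females were S144 to S148 (hAPOE3) and S164 to S168 (hAPOE4), and the males S154 to S158 (hAPOE3) and S174 to S178 (hAPOE4). Every mouse was homozygous for a targeted replacement of its own Apoe by a human allele, hAPOE3 or hAPOE4, on the C57BL/6 background, so that the hAPOE3 mice were the reference for genotype and carried a human gene as well. The animals were perfused with buffered saline before the brain was removed, the tissue was whole dissected hippocampus, and 1 library was made per mouse. The libraries held 35778879 to 52520279 counts.

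Haemoglobin carries oxygen as a complex of alpha and beta chains, each holding a haem. Globin mRNA is made at very high levels in erythroid precursors of the marrow and is still present in young red cells in blood, which no longer have a nucleus. In a perfused brain it is therefore often read as a measure of blood left in the vessels, although low globin expression has also been described in some neurons and glia. Alas2 is made in the erythroid line, whereas Alas1, its counterpart, serves haem synthesis in other tissues. In bulk tissue, fewer cells of a type and less RNA per cell cannot be told apart.

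In the GRCm38 annotation, the alpha genes lie on chromosome 11, Hba-a1 at chr11:32283511-32284465 and Hba-a2 at chr11:32296489-32297298, both on the plus strand. The beta genes lie on the minus strand of chromosome 7, Hbb-bs at chr7:103826534-103828096 and Hbb-bt at chr7:103812524-103813996. Alas2 lies on the plus strand of the X chromosome at chrX:150547375-150570638. Each globin transcript has 3 exons, and the longest coding transcript of Alas2 has 11. The copies of a chain are nearly the same gene. The coding sequences of Hba-a1 and Hba-a2 differed at 1 of 426 bases (the stop codon left out), and those of Hbb-bs and Hbb-bt at 1 of 441. The stretches that hold those bases are shown because they are the part of the coding sequence by which a read can be given to 1 copy and not the other. Capitals mark the base that differs, which is C381T from Hba-a1 to Hba-a2 and C417T from Hbb-bs to Hbb-bt, counted from the A of the start codon.
Hba-a1: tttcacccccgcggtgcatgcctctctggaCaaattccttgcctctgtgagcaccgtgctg
Hba-a2: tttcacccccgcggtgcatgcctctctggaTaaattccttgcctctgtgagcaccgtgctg
Hbb-bs: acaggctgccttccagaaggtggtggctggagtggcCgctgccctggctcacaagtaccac
Hbb-bt: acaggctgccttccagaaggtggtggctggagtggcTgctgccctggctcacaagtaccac
Over the whole transcript, 37.8% of the 75-base windows of Hba-a1 were not found in any transcript of Hba-a2, and 19.0% of those of Hba-a2 were not found in Hba-a1. The same share was 35.7% for Hbb-bs against Hbb-bt and 43.4% for Hbb-bt against Hbb-bs. The division of counts between the copies of a chain is therefore uncertain, while the summed counts of a chain do not depend on it.

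The 250 bases before the RefSeq start of a gene (GRCm38.p6) are shown for 4 of the genes. These windows are where erythroid regulators are known to bind globin genes, and their part in the levels measured here was not tested. Capitals mark 4 kinds of motif searched on both strands. They were the GATA1 words AGATAA with its variant AGATAG, then TGATAA with its variant TGATAG, the KLF1 word CACCC, the CCAAT box, and the TATA words ATAAA with its variant TATAA. Words that overlap were each counted, as in Alas2, where a GATA1 word and a TATA word on the minus strand share bases.
Hba-a1, chr11:32283422-32283671, plus strand: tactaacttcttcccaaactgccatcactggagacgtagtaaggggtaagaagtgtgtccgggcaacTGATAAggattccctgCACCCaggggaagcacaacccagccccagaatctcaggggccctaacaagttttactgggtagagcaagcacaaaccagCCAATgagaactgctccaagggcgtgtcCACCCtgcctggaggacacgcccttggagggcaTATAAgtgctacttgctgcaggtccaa
Hbb-bs, chr7:103827929-103828178, minus strand: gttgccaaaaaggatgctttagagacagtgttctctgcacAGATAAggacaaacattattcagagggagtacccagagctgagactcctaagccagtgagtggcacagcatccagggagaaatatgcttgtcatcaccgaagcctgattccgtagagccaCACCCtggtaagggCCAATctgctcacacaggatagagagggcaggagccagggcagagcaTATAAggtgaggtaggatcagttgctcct
Hbb-bt, chr7:103813924-103814173, minus strand: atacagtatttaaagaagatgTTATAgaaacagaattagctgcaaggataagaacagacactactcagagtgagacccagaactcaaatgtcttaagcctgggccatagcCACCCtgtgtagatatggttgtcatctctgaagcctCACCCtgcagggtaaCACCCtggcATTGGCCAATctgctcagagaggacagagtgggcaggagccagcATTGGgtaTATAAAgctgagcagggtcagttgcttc
Alas2, chrX:150547167-150547416, plus strand: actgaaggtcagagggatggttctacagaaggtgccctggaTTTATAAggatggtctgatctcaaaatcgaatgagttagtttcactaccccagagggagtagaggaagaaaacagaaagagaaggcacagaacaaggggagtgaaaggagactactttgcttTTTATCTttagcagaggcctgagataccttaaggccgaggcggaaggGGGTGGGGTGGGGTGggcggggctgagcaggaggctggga
The window of Hba-a2 was the same as that of Hba-a1 over a run of 247 bases and is not printed. A GATA1 word stood in 4 of the 5 windows, those of Hba-a1 (at -183, counted from the transcript start), Hba-a2 (-186), Hbb-bs (-210) and Alas2 (-86), and in 26.5% of the windows of all 32851 genes in the table. CACCC stood in 5 of 5 windows and in 52.0% of all windows. Hbb-bt held CACCC 3 times, at -140, -104 and -89, and Alas2 held it 3 times on the other strand, at -40, -35 and -30. CCAAT stood in 4 of 5 windows, all but that of Alas2, against 33.8% of all windows. A TATA word stood in 5 of 5 against 43.0%, and in the 4 globins 1 of them began 27 to 30 bases before the start. The 4 genes with a GATA1 word also held CACCC, a pair found in 11.8% of all windows. These are matches of letters in a window, and no binding was measured.

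All 5 genes were detected in all 20 mice, and all 5 were highest in mouse S144, an hAPOE3 female, and second highest in S157, an hAPOE3 male. Levels are given in CPM, counts per 1000000 counts of the library. Before scaling of the libraries, the 4 globins together stood at 8.79 CPM in the lowest mouse, S168 (371 counts, exact binomial 95% interval 7.92 to 9.73), and 308 in S144 (12358 counts, 303 to 314). S157 stood at 199 (9156 counts, 195 to 203), and the third mouse, S154, at 80.8. These intervals cover counting error only. Even in S144 the globins made up 0.0308% of all counts. Mice S144 and S157 held 49.8% of the globin counts of all 20 mice and 34.1% of the Alas2 counts. Of the 4 mice with the most globin, 3 were hAPOE3 (S144, S157 and S154) and 1 was an hAPOE4 male (S177).

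From here on, CPM are after TMM scaling of the library sizes. Hbb-bs, the main beta globin gene, stood at 34.7, 9.90, 7.81, 81.2 and 20.1 CPM in the hAPOE3 males S154 to S158 and at 5.69, 16.3, 7.52, 27.9 and 7.75 CPM in the hAPOE4 males S174 to S178. In the hAPOE3 females S144 to S148 it stood at 133, 5.61, 6.68, 10.1 and 7.52 CPM, and in the hAPOE4 females S164 to S168 at 8.27, 5.41, 11.9, 15.0 and 3.49 CPM. Among hAPOE3 females S144 alone stood far from the rest of its group, whereas the hAPOE3 males were spread over a 10.4-fold range.

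Hba-a2, which had more counts than its copy in 18 of 20 mice, had the same 6 mice at the top as Hbb-bs. It stood at 26.7, 7.95, 6.20, 65.3 and 14.7 CPM in hAPOE3 males and at 95.8, 4.25, 3.45, 8.87 and 5.19 CPM in hAPOE3 females. In the hAPOE4 groups it stood at 5.14, 12.2, 6.16, 17.2 and 5.56 CPM in the males and at 6.49, 3.71, 10.4, 8.74 and 2.37 CPM in the females. Hba-a1 ranged from 2.37 CPM in S168 to 52.1 CPM in S144, with a median over the 20 mice of 4.49 CPM, and Hbb-bt from 0.474 CPM in S165 to 18.9 CPM in S144, with a median of 1.76 CPM. The groups overlapped for every one of the 5 genes in each of the 4 comparisons of 1 group with another, 20 of 20. The same share over all genes is not given, so this overlap cannot be read as particular to the 5.

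Alas2 was the lowest of the 5, with 6 to 133 counts in a library. It stood at 0.669, 0.606, 0.144, 1.45 and 0.499 CPM in hAPOE3 males, with 6 counts in S156, and at 0.507, 0.451, 0.422, 1.31 and 0.414 CPM in hAPOE4 males. In hAPOE3 females it stood at 3.22, 0.277, 0.228, 0.563 and 0.315 CPM, and in hAPOE4 females at 0.571, 0.409, 0.666, 0.609 and 0.311 CPM. Its hAPOE4 values lay close together apart from S177, and its 5 lowest values were those of hAPOE3 mice and of S168. Per kilobase of transcript, the median level over the mice was 14.5 CPM for Hbb-bs, 13.0 CPM for Hba-a2, 6.42 CPM for Hba-a1, 2.50 CPM for Hbb-bt and 0.247 CPM for Alas2.

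**Figure D1:**
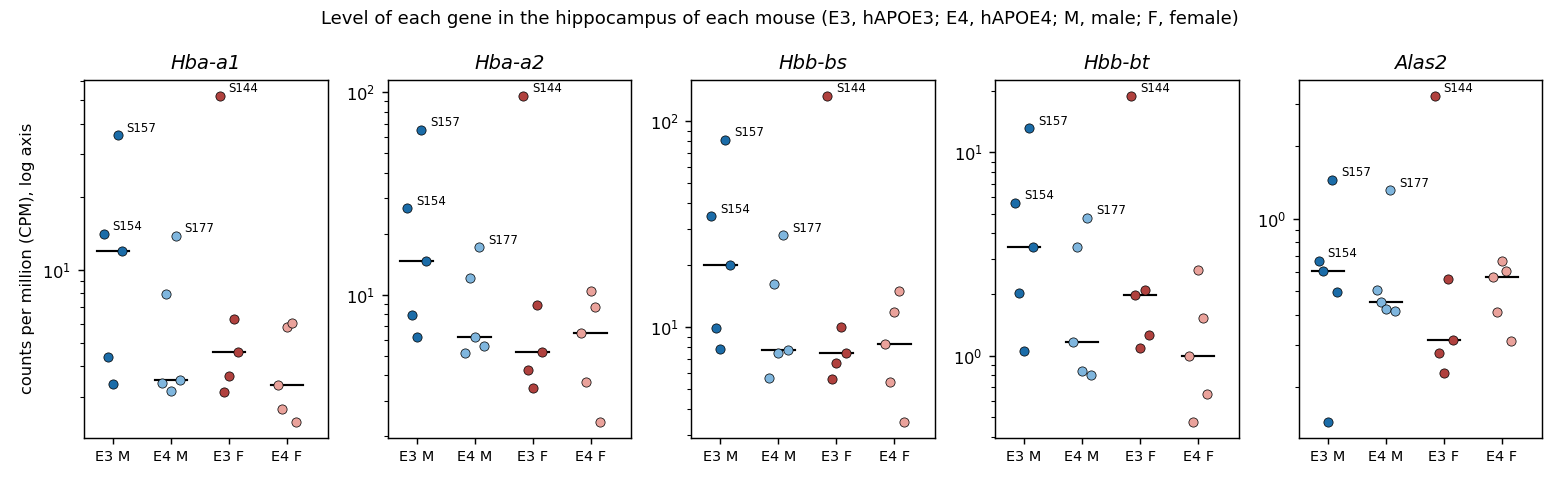
Level of Hba-a1, Hba-a2, Hbb-bs, Hbb-bt and Alas2 in CPM (log axis, its range set for each gene) in each of the 20 mice, by group; a point is 1 mouse and a bar the median of 5. S144 lies at the top of every panel, at 133 CPM for Hbb-bs against 5.61 to 10.1 CPM in the other hAPOE3 females, and S157 comes second in every panel.

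The spread between mice of 1 group was large. The coefficient of variation of Hbb-bs was 98.2% and 172% in hAPOE3 males and females, and 71.2% and 53.3% in hAPOE4 males and females (n = 5 each). The summed globins averaged 75.1 ± 126 CPM in hAPOE3 females (SD, n = 5) and 18.9 ± 5.84 CPM without S144 (SD, n = 4), beside 73.9 ± 72.3 CPM in hAPOE3 males, 30.8 ± 20.9 CPM in hAPOE4 males and 20.5 ± 10.3 CPM in hAPOE4 females (SD, n = 5 each). In the edgeR fit, the biological coefficient of variation, which is the spread left after counting error, was 0.763 for Hba-a1, 0.828 for Hba-a2, 0.832 for Hbb-bs, 0.817 for Hbb-bt and 0.669 for Alas2, against a median of 0.190 over all genes tested. These values lay at the 97.7th percentile of all genes for Alas2 and at the 98.4th to 98.7th for the globins.

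The 4 globin genes rose and fell together across mice. Over the 6 pairs of globins, Pearson's r of log2 CPM over the 20 mice was 0.943 to 0.989 and Spearman's rho 0.862 to 0.985. For the 4 pairs of Alas2 with a globin, r was 0.797 to 0.852 and rho 0.719 to 0.830. For all 10 pairs, the adjusted p from 100000 permutations was at most 0.00052, and 1e-05 is the smallest unadjusted p those permutations can give. Without S144 and S157, the 2 mice farthest from the median, r was 0.870 to 0.971 among the globins and 0.562 to 0.661 between Alas2 and a globin. After removal of the group means it was 0.941 to 0.988 and 0.889 to 0.926, so that the shared variation lay between mice of 1 group.

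Summed beta globin followed summed alpha globin with a slope of 1.02 ± 0.023 (SE) on the log2 scale, over a range of 31.3-fold in alpha and 36.7-fold in beta globin. Alas2 followed summed globin with a slope of 0.63 ± 0.096 (SE, 95% interval 0.43 to 0.83), which stayed at 0.54 ± 0.16 without S144 and S157. A mouse with more globin thus had more Alas2, but less of it per globin count. On a linear scale, the line of Alas2 on summed globin met the axis at 0.238 ± 0.064 CPM of Alas2 (SE, n = 20).

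**Figure D2:**
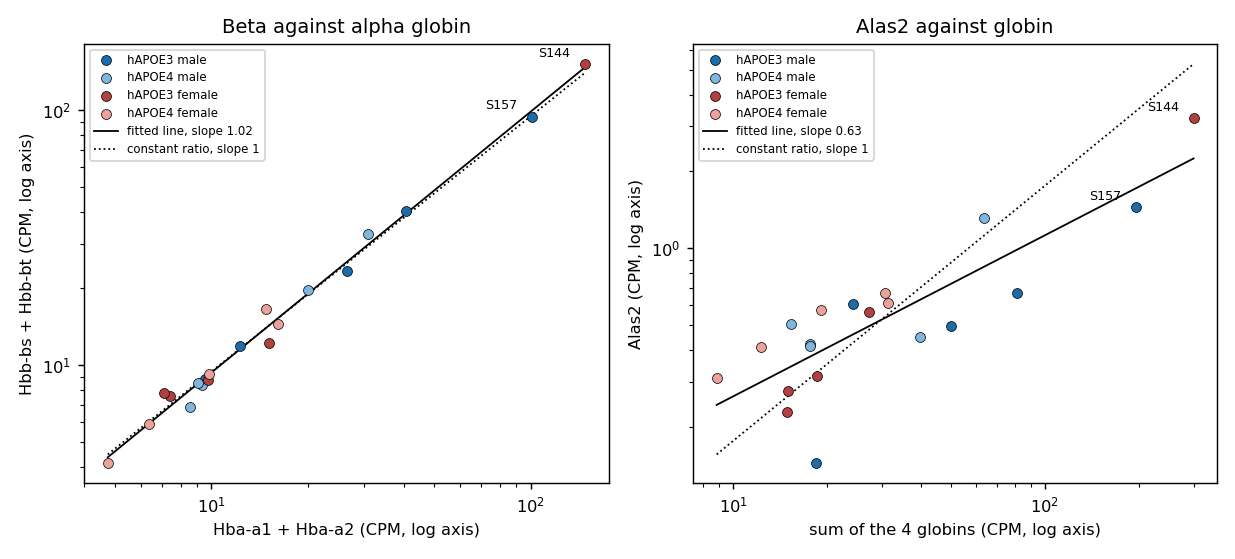
Left, summed beta globin (Hbb-bs and Hbb-bt) against summed alpha globin (Hba-a1 and Hba-a2) in the 20 mice; right, Alas2 against the sum of the 4 globins; all in CPM on log axes, with the fitted line (solid) and a line of constant ratio (dotted). The beta and alpha chains lie along the dotted line with a slope of 1.02, while the Alas2 line is flatter, with a slope of 0.63.

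The ratio of alpha to beta globin counts was close to 1 in every group. It was 1.07 ± 0.047 and 1.04 ± 0.13 in hAPOE3 males and females, and 1.08 ± 0.11 and 1.06 ± 0.098 in hAPOE4 males and females (SD, n = 5 each). Over the 20 mice it ran from 0.894 in S167 to 1.24 in S174. S144 and S157, with the most globin, stood at 0.974 and 1.07, within that range. The SD of the log2 ratio over mice was 0.13, and counting error alone would give 0.093. The difference between hAPOE4 and hAPOE3 over both sexes was 0.017 on the log2 scale (two-sided exact permutation p = 0.775, adjusted p = 0.906 over 24 tests of 4 ratios in 6 comparisons). With 5 mice against 5 the exact permutation test cannot go below p = 0.00794.

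The share of the 2 copies of a chain varied more. Hba-a2 had 1.53 ± 0.32 times the counts of Hba-a1 over the 20 mice (SD, n = 20), from 0.945 in S146 to 1.95 in S176. Of the hAPOE3 males, 4 stood between 1.82 and 1.90 and S158 at 1.23, and the hAPOE3 females averaged 1.34 ± 0.34 (SD, n = 5) against 1.72 ± 0.28 in hAPOE3 males (exact permutation p = 0.111, adjusted p = 0.402). Hbb-bt had a median of 16.5% of the counts of Hbb-bs, from 8.76% in S165 to 35.4% in S145. It averaged 14.3 ± 5.78% in hAPOE4 females and 20.7 ± 8.57% in hAPOE3 females (exact permutation p = 0.151, adjusted p = 0.402). The SD of the log2 ratio was 0.32 for the alpha copies and 0.47 for the beta copies, against 0.13 and 0.20 from counting error. That error takes each count as given to the right copy, and so leaves out the uncertain division of reads between near-identical copies. The part of that division in the spread was not tested. No test of either ratio had an adjusted p under 0.05 (exact permutation, smallest adjusted p = 0.402).

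Of the 4 ratios tested, that of Alas2 to summed globin differed most between genotypes. Alas2 had 0.825, 2.50, 0.782, 0.743 and 0.995% of the summed globin counts in hAPOE3 males S154 to S158 and 3.30, 1.13, 2.39, 2.06 and 2.35% in hAPOE4 males S174 to S178. In hAPOE3 females S144 to S148 it had 1.08, 1.85, 1.54, 2.06 and 1.70%, and in hAPOE4 females S164 to S168 2.99, 3.34, 2.17, 1.94 and 3.50%. The groups overlapped in both sexes. In males S155 stood above S175, S176, S177 and S178, and in females S147 stood above S167. The means were 1.17 ± 0.75% and 2.25 ± 0.78% in hAPOE3 and hAPOE4 males, and 1.64 ± 0.37% and 2.79 ± 0.70% in hAPOE3 and hAPOE4 females (SD, n = 5 each). The hAPOE4 mice were higher by 0.90 on the log2 scale over both sexes (exact permutation within sex p = 0.00233, adjusted p = 0.0559), by 1.04 in males (exact permutation p = 0.0476, adjusted p = 0.300) and by 0.76 in females (exact permutation p = 0.0159, adjusted p = 0.190). The adjusted p missed 0.05 in all 3. In the comparison over both sexes it fell below 0.05 with the deposited normalized values (adjusted p = 0.0438) and with mean shares in place of log2 ratios (adjusted p = 0.0491). It did so too without any 1 of the mice S155 (adjusted p = 0.00831), S175 (0.0302), S167 (0.0385), S147 (0.0461) or S166 (0.0484). Of these, S155 and S147 had the highest ratio of their hAPOE3 group, and S175 and S167 the lowest of their hAPOE4 group. Without any other single mouse it stayed above 0.05 (up to 0.135, without S174), and without both S144 and S157 it was 0.209. The 3 mice with most globin, S144, S157 and S154, were hAPOE3 and had ratios of 1.08, 0.743 and 0.825%. Measured as the distance of Alas2 from its own line on summed globin, a choice made after the data were seen, the difference over both sexes was 0.57 on the log2 scale (exact permutation p = 0.0108, adjusted p = 0.260), with 5 of 5 hAPOE4 females, 4 of 5 hAPOE4 males, 2 of 5 hAPOE3 females and 1 of 5 hAPOE3 males above the line.

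**Figure D3:**
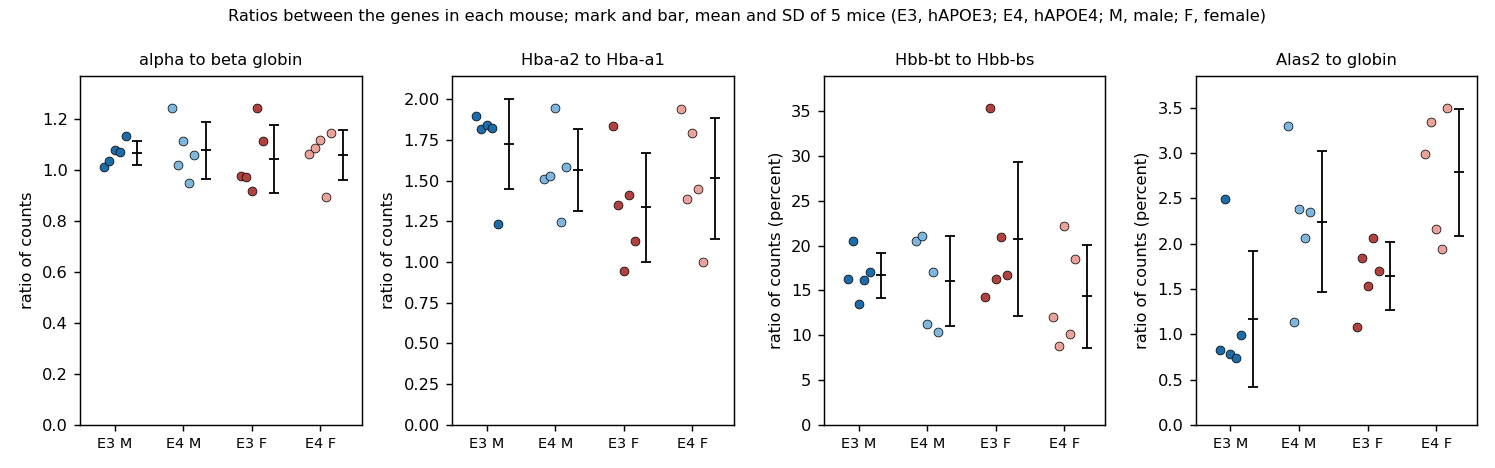
Ratios of counts between the genes in each mouse, by group: alpha to beta globin, Hba-a2 to Hba-a1, Hbb-bt to Hbb-bs in percent, and Alas2 to summed globin in percent; points are mice, and the mark and bar beside them the mean and SD of 5. The alpha to beta ratio stays between 0.894 and 1.24, while Alas2 to globin has higher means in hAPOE4 mice of both sexes (2.25 and 2.79%) than in hAPOE3 mice (1.17 and 1.64%), with overlap.

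The comparison of genotypes asked whether the human APOE allele went with a different level of these genes. None of the 5 passed an adjusted p of 0.05 between hAPOE4 and hAPOE3 mice, in males (0 of 5, against 0.621% of all genes tested), in females (0 of 5, against 0.667%) or over both sexes (0 of 5, against 2.45%). By an unadjusted p under 0.05, the numbers were 0, 4 and 4, the 4 being the globins, against 9.06%, 10.1% and 17.9% of all genes tested, and DESeq2 called 0 of 5 in each, with 0, 4 and 4 unadjusted. All 5 fitted values were negative in each sex. Over both sexes the log2 difference of hAPOE4 against hAPOE3 was -1.46 ± 0.53 (SE) for Hba-a1, -1.64 ± 0.58 for Hba-a2, -1.56 ± 0.59 for Hbb-bs and -1.61 ± 0.57 for Hbb-bt, with edgeR adjusted p of 0.139 to 0.163. For Alas2 it was -0.48 ± 0.45 (adjusted p = 0.608). In females the 4 globins stood between -2.01 and -1.79 (SE 0.76 to 0.84) and Alas2 at -0.84 ± 0.64. In males they stood between -1.39 and -1.13 (SE 0.74 to 0.82) and Alas2 at -0.13 ± 0.64. The median over the 5 genes was -1.56 over both sexes, and that over all genes tested was 0.0016.

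These values rested on the 2 mice with most globin. Without S144, Hbb-bs in females stood at 0.24 on the log2 scale instead of -1.88, Hba-a2 at 0.22 instead of -1.89, and Alas2 at 0.56 instead of -0.84. Without S157, Hbb-bs in males stood at -0.48 instead of -1.24. Without both mice, a choice made after the data were seen, the values over both sexes were -0.26 for Hba-a1, -0.18 for Hba-a2, -0.12 for Hbb-bs, -0.40 for Hbb-bt and 0.47 for Alas2 (SE 0.31 to 0.41), with 0 of 5 past the threshold. A group median does not depend on how far out the highest mouse lies. With 5 widely spread mice it can still shift when a mouse is left out. In males the medians of the hAPOE4 group were the lower for all 5 genes. In females they were lower in hAPOE4 mice for Hba-a1 (0.727 times the hAPOE3 median) and Hbb-bt (0.994 against 1.99 CPM), and higher for Hba-a2, Hbb-bs and Alas2. The median of Hbb-bs was 20.1 CPM in hAPOE3 males and 7.75 CPM in hAPOE4 males, but 7.52 CPM in hAPOE3 females and 8.27 CPM in hAPOE4 females.

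**Figure D4:**
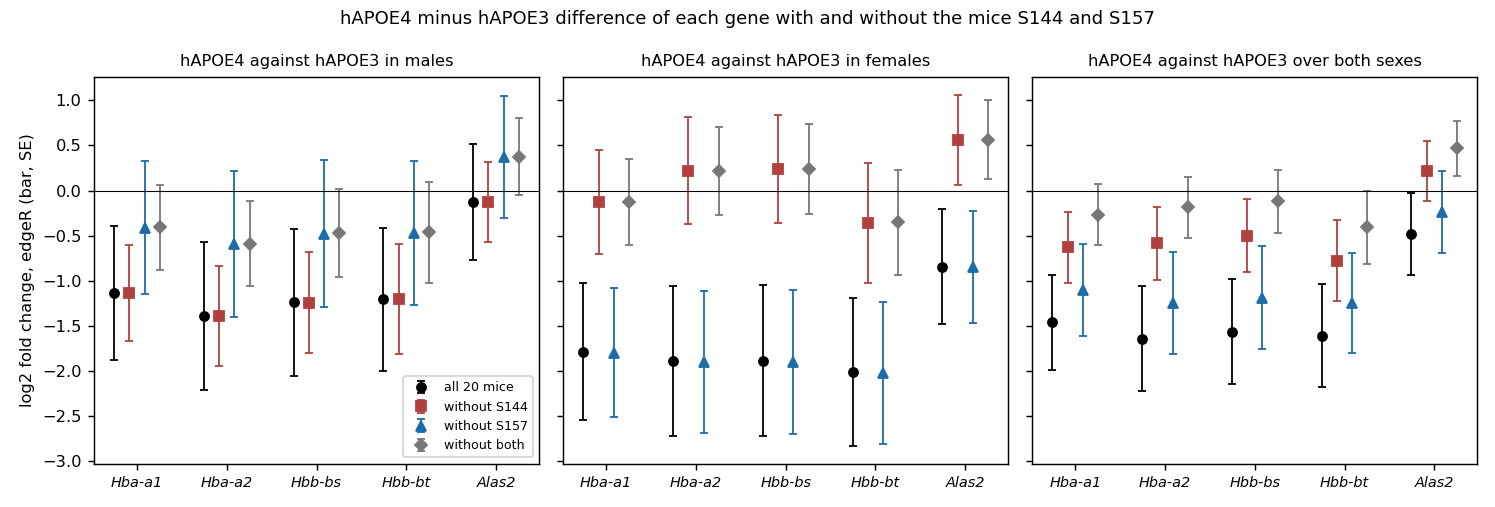
Difference between hAPOE4 and hAPOE3 mice for each gene (log2 fold change from edgeR, bar SE), in males, in females and over both sexes, with all 20 mice and without S144, without S157 or without both. In females the 4 globins lie between -2.01 and -1.79 with all mice and between -0.36 and 0.24 without S144, and over both sexes without both mice they lie between -0.40 and -0.12.

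Between the sexes, none of the 5 passed the threshold in hAPOE3 mice (0 of 5, against 0.0414% of all genes tested), in hAPOE4 mice (0 of 5, against 0.437%) or over both genotypes (0 of 5, against 0.129%), nor did the interaction of sex and APOE (0 of 5, against 0.184%). By an unadjusted p under 0.05 none of the 5 passed in these 4 either, in edgeR or in DESeq2. In hAPOE3 mice, where each sex held 1 of the 2 high mice, the log2 difference of females against males was 0.08 ± 0.80 (SE) for Hbb-bs and 0.45 ± 0.63 for Alas2. Without S144 it was -2.04 for Hbb-bs (unadjusted p = 0.00379, adjusted p = 0.913) and without S157 it was 0.87. In hAPOE4 mice all 5 values were negative, from -0.80 ± 0.82 for Hbb-bt to -0.27 ± 0.65 for Alas2, and without S177, the hAPOE4 male with most globin, Hbb-bs went from -0.56 to -0.08. The interaction was between -0.81 and -0.50 for the 5 genes (SE 0.90 to 1.15, adjusted p = 1.000 for each).

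Other genes of red cells and of haem did not follow the globins. Of 9 defining markers of the erythroid line, 7 were in the table, and in 5 of them no library held more than 10 counts, among them Slc4a1, the anion exchanger of the red cell membrane, Rhag and Hemgn. The 7 markers summed to 32 to 52 counts in hAPOE3 males and 32 to 56 in hAPOE3 females, and to 18 to 63 in hAPOE4 males and 30 to 45 in hAPOE4 females, with 47 in S144 and 38 in S157. S144 thus ranked the 8th of 20 mice by these markers in CPM, and S157 the 16th. Of the 24 erythroid genes listed, 10 were tested, led in CPM by Sptb and Ank1, which neurons also express, and the mean of the 10 had r = -0.35 with that of the globins over the 20 mice. None of the 46 tested genes of the lists of other globins, haem synthesis, erythroid cell, haemoglobin and haem clearance, platelet and neutrophil passed the edgeR threshold in any of the 7 contrasts. The number with an unadjusted p under 0.05 was 0 to 4 per contrast, and DESeq2 called 0 of 46 in each, with 0 to 5 unadjusted. Over all genes tested, edgeR called 0.0414% to 2.45% per contrast, and 2.54% to 17.9% had an unadjusted p under 0.05.

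The haem synthesis list held Alas1 at 49.97 ± 4.04 CPM (SD, n = 20), against 0.682 ± 0.679 CPM for Alas2, and Tfrc, the transferrin receptor, at 79.4 ± 10.6 CPM. Its 14 genes had a median r of 0.015 with the globins. Among other globins, Cygb (cytoglobin) and Ngb (neuroglobin), which are made in brain tissue itself, had r of -0.32 and 0.14, and the embryonic Hbb-y had 0 to 11 counts per library. In the clearance list, led by Fth1, a ferritin chain, and Lrp1, a receptor that takes up haem bound to hemopexin, the median r was 0.012. Hp and Hpx, the plasma carriers of free haemoglobin and haem, had r of 0.20 and -0.064, and Hmox1, the inducible haem-degrading enzyme, -0.24.

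Markers of the other cells that blood or a dissection could bring were compared in the same way, as a description. The r of a list's mean with the globins was 0.082 for platelets (5 genes tested of 7, Itgb3 and Itga2b highest), 0.024 for B cells (4 of 6, Ighm and Igkc highest), 0.028 for endothelium (12 of 12, Slc2a1 and Flt1 highest), 0.038 for pericytes and smooth muscle (9 of 9, Rgs5 and Vtn highest), -0.042 for meningeal fibroblasts (7 of 7, Igf2 and Dcn highest), 0.095 for choroid plexus (12 of 12, Ttr and Enpp2 highest), -0.20 for hippocampal neurons (10 of 10, Camk2a and Snap25 highest) and 0.093 for nuclear oxidative phosphorylation (44 of 44, Cox4i1 and Cox8a highest). Neutrophil markers were close to 0, with 1 to 64 summed counts of 5 defining markers in a library, 9 in S144 and 11 in S157, S100a9 and Lcn2 being the highest of the list. T cell markers had the highest value, r = 0.45, and 0.20 without S144 and S157. The 4 defining T cell markers summed to 2.24 to 13.8 CPM in hAPOE3 males, where 13.8 was S157, to 2.74 to 3.57 CPM in hAPOE3 females, where 2.74 was S144, and to 0.816 to 1.79 CPM and 0.967 to 1.88 CPM in hAPOE4 males and females. Trbc2, a T cell receptor chain, had 476 counts in S157 against 8 to 59 in the other 19 mice. The part of T cell RNA in the globin result was not tested. Of these lists, Cd3d, a subunit of the T cell receptor complex, was lower in hAPOE4 mice (log2 difference -2.07 over both sexes, edgeR adjusted p = 2.17e-06), and kept that call whichever mouse was left out. Kdr, a growth factor receptor of the endothelium, was higher over both sexes (0.49, adjusted p = 0.0363), and Igkc, an antibody light chain, in females (3.73, adjusted p = 0.0436). The call of Kdr was lost on leaving out any 1 of 13 of the 20 mice (adjusted p up to 0.0787), and that of Igkc any 1 of 16 (up to 0.144). Igkc had 316 and 256 counts in S164 and S165 and 4 to 33 in the other 18 mice.

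Across all 21720 genes tested other than the 4 globins, Alas2 had the highest r with the mean of the globins, 0.85 over the 20 mice, and 2 genes were above 0.7. The 10 genes outside the 5 that came next were Syce1 (0.75), Cldnd1 (0.68), Gm40493 (0.67), Mcm2 (0.65), Ect2l (0.64), Rell1 (0.64), 2700097O09Rik (0.64), Col28a1 (0.63), Dpp4 (0.63) and 4930505A04Rik (0.63). Without S144 and S157, Alas2 stood at 0.64 and was the 6th of all these genes, and Syce1 came first at 0.73. The 10 genes were taken as the highest of 21720 values of r, 14 of them above 0.6, with no test. Without S144 and S157 these 10 ranged from 0.23 (Dpp4) to 0.73 (Syce1). Of the library measures, the total counts had r = -0.058 with the globins (rho -0.054) and the TMM factor 0.23 (rho 0.19). The mitochondrial share of counts had r = 0.27 and rho = 0.44, and r = 0.31 without S144 and S157. Its part in the globin level was not tested.

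**Figure D5:**
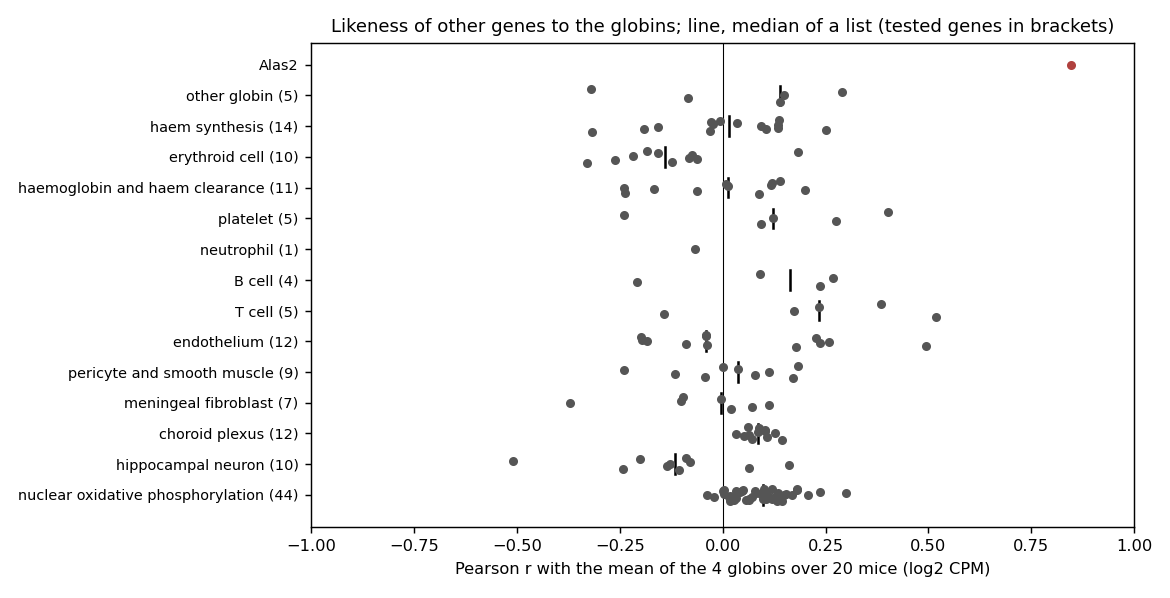
Pearson's r over the 20 mice between each gene's log2 CPM and the mean of the 4 globins, for Alas2 and for the tested genes of each list; a point is a gene and a line the median of its list. Alas2 lies at 0.85, and the list medians lie between -0.14 (erythroid cell) and 0.24 (T cell).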

How the data were processed

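RNA was measured in 1 hippocampus library for each of 20 mice, grouped by the labels, each library from its own mouse. Per the study's methods, poly(A)-selected RNA was sequenced as 75-base paired reads, and the authors estimated counts with Salmon 0.91 on Ensembl transcripts (GRCm38) and summed them to genes with tximport. The deposited estimated counts were whole numbers and were tested as counts. A second deposited table held DESeq2-normalized counts, a signal scaled by the authors, used only as an alternative; for Alas2 its factor over the count ranged from 0.704 to 2.21 between mice. No column was left out, and no comparison columns of the authors were used.

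Genes passing edgeR's filter by group (21724) were fitted with edgeR 4.0.16 (TMM, quasi-likelihood test, 1 mean per group over all 20 mice, Benjamini-Hochberg over all genes, threshold 0.05) in 7 contrasts. DESeq2 1.42.0 and limma 3.58.1 (log2 of the normalized values plus 1) were alternatives. Ratios were tested by exact permutation of log2 ratios, within the other factor where pooled, and correlations by 100000 permutations with scipy 1.17.1. Likeness used log2 CPM with a prior count of 2, and intervals are exact binomial at 95%. Promoter windows were taken from RefSeq (GRCm38.p6, 5 of 5 genes matched) and transcripts from GENCODE vM21 (GRCm38). Libraries within a group differed by more than sampling noise (chi-square per degree of freedom at least 9.98 over 40 pairs). The fit was tested on simulated data: of 50 genes changed 2-fold in males among 21724, 80% were recovered, and of 50 changed 4-fold, 98%. The changed genes were drawn at random, each with its own spread, above a floor of level that Alas2 did not reach. The 5 members spread far more than most genes (biological coefficient of variation 0.669 to 0.832, against a median of 0.190). The shares recovered therefore do not say how often a change in these 5 would be called.

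The members and lists were chosen with earlier results of these data known. The genes named were the 5 members, from each list the genes called in any contrast and the 2 highest in mean CPM, and the 10 genes outside the members most like the globins. Further list genes named for what they encode (the erythroid markers, Ngb, Hbb-y, Hp, Hpx, Hmox1) and the counts of single mice were chosen after their values were seen. Some erythroid markers are not reported here by name.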

Additional observations from a re-analysis of the deposited data

Results flagged for a closer look

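Of 40 sets of 5 mice checked (5 genes, their summed globins and 4 ratios in 4 groups), 9 had 1 mouse far from the other 4, by a gap of more than 0.71 of the set's range. Chance gives about 1 in 20 such sets where values are normally distributed and the sets independent. Here the CPM had long upper tails and the genes varied together, so the 9 are not separate events and cannot be set against that share.

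Mouse S144 stood apart among the hAPOE3 females for all 5 genes and their sum. Hba-a1 was at 52.1 CPM in S144 and at 3.14 to 6.27 in the other 4, Hba-a2 at 95.8 against 3.45 to 8.87, Hbb-bs at 133 against 5.61 to 10.1, Hbb-bt at 18.9 against 1.08 to 2.11, Alas2 at 3.22 against 0.228 to 0.563, and the summed globins at 299.6 against 14.9 to 27.3 CPM. S144 also ranked the 5th of 20 mice in choroid plexus markers and the 4th in meningeal fibroblast markers, and S157 the 9th and the 20th. The part of either in the globin level was not tested.

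Alas2 was at 1.31 CPM in the hAPOE4 male S177 and at 0.414 to 0.507 CPM in the other hAPOE4 males, and S177 was also the hAPOE4 male with most globin. The ratio of Hba-a2 to Hba-a1 was 1.23 in the hAPOE3 male S158 and 1.82 to 1.90 in the other 4. The ratio of Alas2 to summed globin was 0.0250 in the hAPOE3 male S155 (23 Alas2 counts) and 0.00743 to 0.00995 in the other 4.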

How the results depend on the processing

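Of the 30 alternatives to the fit of the members, none brought any of the 5 past the threshold in any of the 7 contrasts. The smallest adjusted p was 0.0857, for Hba-a2 over both sexes in DESeq2.

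The sign of several values, none of them past the threshold, depended on the setting, and the cause was not tested. For hAPOE3 females against hAPOE3 males, the difference with the choroid plexus score as covariate was -0.030 for Alas2, -0.52 for Hba-a1, -0.58 for Hbb-bs and -0.57 for Hbb-bt. With the nuclear oxidative phosphorylation score it was -0.38 for Hba-a1, -0.62 for Hbb-bs and -0.44 for Hbb-bt, and with limma on the normalized values -0.49, -0.72 and -0.48. With limma, Alas2 stood at 0.20 in males, 0.14 in females and 0.17 over both sexes for hAPOE4 against hAPOE3, and at 0.021 for females against males in hAPOE4 mice. Without mice S144 and S157, Alas2 stood at 0.38, 0.56 and 0.47 in males, in females and over both sexes, Hba-a2 and Hbb-bs in females at 0.22 and 0.24, and the sex difference in hAPOE3 mice at -0.45 for Alas2, -0.92 for Hba-a1, -1.27 for Hbb-bs and -0.91 for Hbb-bt.

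When each mouse was left out in turn, hAPOE4 against hAPOE3 ranged for Alas2 from -0.59 to 0.37 in males, from -1.08 to 0.56 in females and from -0.71 to 0.22 over both sexes, and in females from -2.17 to 0.22 for Hba-a2 and from -2.16 to 0.24 for Hbb-bs. Females against males in hAPOE3 ranged from -0.96 to 0.97 for Alas2, from -1.66 to 0.75 for Hba-a1, from -2.15 to 0.78 for Hba-a2, from -2.04 to 0.87 for Hbb-bs and from -1.65 to 0.76 for Hbb-bt, and in hAPOE4 from -0.38 to 0.19 for Alas2.

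The ratio of Alas2 to globin over both sexes had an adjusted p under 0.05 as a difference of mean shares (1.07 percentage points, adjusted p = 0.0491) and with the normalized values (1.07 on the log2 scale, adjusted p = 0.0438). It ranged from 0.82 to 1.06 with each mouse left out (adjusted p 0.00831, without S155, to 0.135) and was 0.76 without S144 and S157 (adjusted p = 0.209). No other ratio crossed the threshold. With each mouse left out, the alpha to beta ratio ranged for hAPOE4 against hAPOE3 from -0.044 to 0.054 in males, from -0.020 to 0.090 in females and from -0.0094 to 0.050 over both sexes, and for females against males from -0.10 to 0.0075 in hAPOE3, from -0.067 to 0.038 in hAPOE4 and from -0.063 to 0.00 over both. The Hba-a2 to Hba-a1 ratio ranged from -0.037 to 0.092 between genotypes over both sexes and from -0.17 to 0.070 between the sexes in hAPOE4. The Hbb-bt to Hbb-bs ratio ranged from -0.22 to 0.037 between genotypes in males and from -0.083 to 0.10 between the sexes over both genotypes.

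No paired analysis was possible because the labels give no replicate numbers that groups share. Over all genes, DESeq2 called 25 to 1163 per contrast and edgeR 9 to 532. Alas2 had 6 to 133 counts per library, and counting error alone would give its log2 ratio to globin an SD of 0.34, against 0.53 within groups.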

Other observations

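Some immune transcripts were high in 1 or 2 mice, chosen here after their values were seen. Ighm, the heavy chain of IgM, had 1478 counts in S157, the hAPOE3 male with most globin, and 1402 in S165, an hAPOE4 female low in globin, with a median of 580 over the 20 mice and 522 in S144. Cd4, a co-receptor of helper T cells, had 601 counts in S158, an hAPOE3 male whose Hbb-bs level was the median of its group, with a median of 19 over the 20 mice and 32 in S144.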
